A study of Rattus norvegicus with 10 samples.

Results

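The p53 response and its apoptotic arm were followed through 10 genes in distal colon epithelial cells of rats fed a bile acid salt. The genes were Cdkn1a, Gadd45a, Ccng1, Mdm2, Bax, Bbc3, Pmaip1, Fas, Bcl2l1 and Mcl1, picked by symbol, and they are 10 of the 23422 genes in the table. All 10 passed the filter on low counts and were tested. Their counts ran between 51 and 5108 per library.

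Both diets were given to male Wistar Munich rats with a body weight between 284 and 347 g, whose age the sources used here do not give. The cholate group was switched after 3 days of acclimatization to chow holding 1% w/w sodium cholate, the salt of a primary bile acid, and the control group stayed on chow without it. Diets lasted 10 days, then epithelium of the distal colon was released with EDTA, and polyA RNA of the 5 rats per diet with the most concentrated RNA was sequenced. The libraries are cholate rats 3, 4, 7, 8 and 11 and control rats 1, 2, 5, 6 and 9. That choice of rats was not random, and neither group is a genetic model.

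p53 is a transcription factor that is kept scarce by the ubiquitin ligase Mdm2 and accumulates when DNA is damaged or growth is stressed. Its targets include inhibitors of the cell cycle, repair proteins and Mdm2 itself, and also genes that open the outer mitochondrial membrane through the BCL2 family or act through the death receptor Fas. In intestinal crypts this response is known chiefly from irradiated animals, in which dividing cells arrest or die, while the pro-survival proteins encoded by Bcl2l1 and Mcl1 hold Bax and its relatives in check.

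The promoter windows below belong to the 3 arrest and repair genes and to the death receptor, since these hold the motif matches that the text refers to. They are RefSeq sequences on GRCr8, 250 bases before to 50 bases after the start of the gene, while gene positions further on are those of the table, on rn6. The Cdkn1a window is chr20:7150682-7150981 on the plus strand, Gadd45a chr4:97486750-97487049 on the minus strand, Ccng1 chr10:25684827-25685126 on the minus strand and Fas chr1:241211905-241212204 on the plus strand. A full p53 element is an adjacent pair of decamers. In Gadd45a and Ccng1 capitals mark 1 exact p53 decamer, and in Cdkn1a an adjacent pair whose second decamer has 1 mismatch outside its core. In Fas they mark TGAATCA, a match to TGANTCA, which is a loose form of the AP-1 motif that takes any base at its centre.
Cdkn1a: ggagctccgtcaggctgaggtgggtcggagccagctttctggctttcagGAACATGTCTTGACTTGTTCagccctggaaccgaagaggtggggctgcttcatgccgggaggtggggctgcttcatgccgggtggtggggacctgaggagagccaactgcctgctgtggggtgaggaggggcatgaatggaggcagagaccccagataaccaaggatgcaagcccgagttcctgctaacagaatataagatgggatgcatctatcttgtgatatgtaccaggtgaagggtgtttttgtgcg
Gadd45a: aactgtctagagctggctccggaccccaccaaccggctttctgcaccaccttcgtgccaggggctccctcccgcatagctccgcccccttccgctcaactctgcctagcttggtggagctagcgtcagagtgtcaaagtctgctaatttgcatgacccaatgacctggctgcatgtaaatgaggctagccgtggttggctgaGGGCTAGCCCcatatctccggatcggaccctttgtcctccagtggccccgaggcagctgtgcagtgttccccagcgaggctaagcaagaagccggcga
Ccng1: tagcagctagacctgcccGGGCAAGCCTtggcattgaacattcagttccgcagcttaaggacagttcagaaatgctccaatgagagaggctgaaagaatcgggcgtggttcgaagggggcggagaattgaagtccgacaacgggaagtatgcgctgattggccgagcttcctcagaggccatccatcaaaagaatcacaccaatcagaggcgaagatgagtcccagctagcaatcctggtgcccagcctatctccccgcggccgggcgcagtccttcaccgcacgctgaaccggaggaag
Fas: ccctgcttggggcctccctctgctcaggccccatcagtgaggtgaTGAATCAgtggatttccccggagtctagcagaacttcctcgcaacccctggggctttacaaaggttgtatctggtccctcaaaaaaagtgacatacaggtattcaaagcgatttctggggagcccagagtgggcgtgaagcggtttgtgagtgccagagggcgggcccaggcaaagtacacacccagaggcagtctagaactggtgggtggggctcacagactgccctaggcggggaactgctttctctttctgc

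Of the 10 genes, 8 had a window, 11 windows in all, and Bax and Bbc3 had none. Both strands were searched for the p53 decamer, a pair of adjacent decamers with at most 1 mismatch outside their cores, TGANTCA and CCAAT. The decamer lies within the pair, and no other matches in these windows overlap. An exact decamer occurred in 7.98% of 33469 rat promoter windows of the same length, and among the members in Cdkn1a, Gadd45a and Ccng1. The adjacent pair occurred in 12 of the 33469 windows, 0.0359%, and Cdkn1a is one of these 12, with the pair GAACATGTCTTGACTTGTTC starting at position -201 from the gene start. In Gadd45a the decamer GGGCTAGCCC starts at -48, and in Ccng1 the decamer GGGCAAGCCT starts at -232. TGANTCA was found in 7.33% of windows and in the Fas window at -205. CCAAT was found in 37.5% of windows, and Gadd45a holds 1 match, Ccng1 3 and Mdm2 1, while 2 of the 4 Bcl2l1 windows, which overlap each other, hold at least 1. These matches describe letters in a window and say nothing of binding.

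Levels are CPM, counts relative to the library total, on library sizes scaled by TMM, a method that corrects for differences in composition between libraries. Each change is given as the log2 of the fold of cholate over control, estimated by edgeR, with its standard error (SE) and a p-value of the quasi-likelihood test adjusted over all 12385 genes tested. The library totals lay between 14337356 and 45285762 counts, and 0 counts in a library allow a level of up to 0.0662 to 0.209 CPM, which covers counting error only. Cholate rats 8 and 11 and control rat 9 had the lowest totals, with at most 19883925 counts, and stood apart on the first principal component, which held 46.8% of the variance. Changes of the 10 genes are given with and without these 3 libraries. Control rat 5 lay between them and the other 6 on that component. The epithelial marker Epcam was high in every library, between 1891 and 2724 CPM on cholate and between 2215 and 2884 CPM on control. The labels call the rats separate animals, so the p-values cover spread between rats. In bulk RNA, fewer cells of a type and less RNA per cell cannot be told apart.

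Between the diets, 1 of the 10 genes reached an adjusted p under 0.05 in the edgeR test, beside 13.8% of all genes tested. Gadd45a, a growth arrest and DNA damage inducible protein, rose 1.58-fold, while the other 9 did not reach an adjusted p under 0.05. The cell cycle inhibitor Cdkn1a averaged 105 ± 30.1 CPM on cholate and 78.5 ± 14.2 CPM on control (SD, n = 5 each), a difference that did not pass. The p53 feedback gene Mdm2 averaged 38.0 ± 3.16 CPM on cholate and 37.4 ± 3.55 CPM on control. Fas, with a log2 fold change of -0.79, and Bcl2l1, with one of 0.53, passed only under some settings. Across the 10 genes 8 estimates lay above 0 and 2 below, with a median of 0.22, beside a median of -0.01 over all genes tested. Of all genes tested 48.9% lay above 0. Without the 3 shallow libraries the estimates of Bax and Bbc3 fell below 0, and that of Mdm2 changed sign under 5 of 20 other settings.

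At an adjusted p under 0.05, 1 of the 10 genes was called, beside 13.8% of all genes tested, and it was a gene that rose, as did 6.48% of all genes. At an adjusted p under 0.01 with a fold over 2, the edgeR test called 0 of the 10, beside 3.21% of all genes, and so did DESeq2, beside 6.37%, and limma-voom, beside 3.9%. At an adjusted p under 0.05 DESeq2 called 3 of the 10, beside 21.6% of all genes, and limma-voom 2, beside 15.3%. Before adjustment 3 of the 10 had a p under 0.05, namely Gadd45a, Bcl2l1 and Fas. The 5 cholate values lay wholly outside the 5 control values in 1 of the 10, again Gadd45a, beside 13.1% of all genes.

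**Figure D1:**
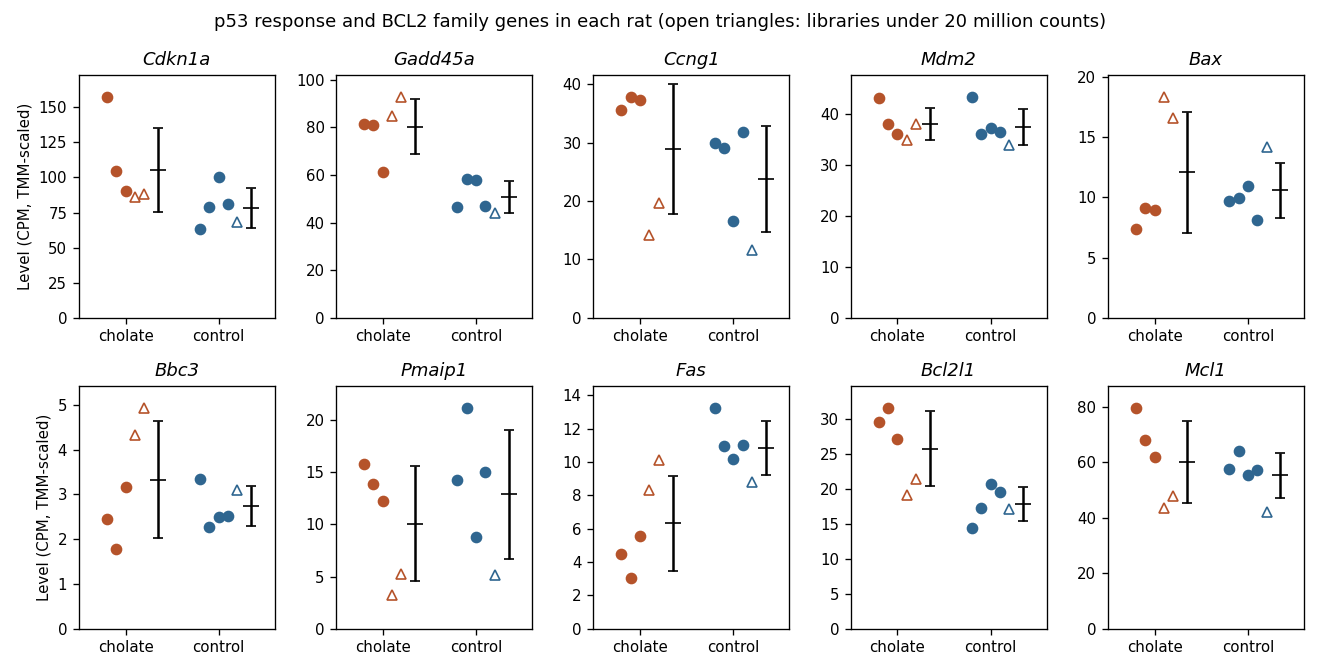
Level of each of the 10 genes in every rat, in CPM on TMM-scaled library sizes, with cholate rats left and control rats right in each panel. Points are single rats, open triangles are the 3 shallow libraries, and bars give the mean and SD of 5 rats. Only in the Gadd45a panel do the diets not overlap, at 61.3 CPM or more on cholate and 58.4 CPM or less on control.

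The arrest and repair genes come first. Gadd45a (Entrez 25112, rn6 chromosome 4, 97782512 to 97784814, minus strand) had 81.2, 81.0, 61.3, 84.8 and 92.8 CPM in cholate rats 3, 4, 7, 8 and 11, against 46.4, 58.4, 57.7, 46.7 and 44.1 CPM in control rats 1, 2, 5, 6 and 9. Every cholate rat lay above every control rat, and cholate rat 7 came nearest to the control range. The log2 fold change was 0.66 (SE 0.14, 95% interval 0.35 to 0.98), a fold of 1.58 with an interval from 1.27 to 1.97, at an adjusted p of 0.0128 in the edgeR test. The adjusted p stayed between 0.0102 and 0.0394 when any 1 rat was left out. Without the 3 shallow libraries the change was 0.53 (adjusted p = 0.0244). Of its 498 coding bases, 115 lie in exons of the antisense gene LOC100912188, which is not in the table. The sources used here do not say if reads were counted by strand, so those of this gene and of its antisense partner may not be separate.

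Cdkn1a (Entrez 114851, rn6 chromosome 20, 6348422 to 6358864, plus strand) encodes the cyclin-dependent kinase inhibitor through which p53 stops the cell cycle. It had 157.4, 105, 90.2, 86.1 and 87.9 CPM in cholate rats 3, 4, 7, 8 and 11, against 63.5, 79.3, 100.2, 81.0 and 68.4 CPM in control rats 1, 2, 5, 6 and 9. Cholate rat 3 was far above all other rats, and control rat 5 lay above 3 of the cholate rats. Its change of 0.42 (SE 0.19, interval -0.0030 to 0.85) did not pass, with an adjusted p of 0.176 in the edgeR test. Without the 3 shallow libraries it was 0.56 (adjusted p = 0.0720), and without cholate rat 3 alone it was 0.24 (adjusted p = 0.342). When control rat 5 was left out with the shallow libraries it was 0.68 (adjusted p = 0.0302), but that rat was the highest control for Cdkn1a, so that leaving it out raises the estimate by construction. In that last comparison 38.5% of all genes had an adjusted p under 0.05 and 7.93% an adjusted p under 0.01 with a fold over 2.

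Ccng1 (Entrez 25405, chromosome 10, 25903925 to 25910298, minus strand) encodes cyclin G1, a p53 target that feeds back on Mdm2. It had 35.6, 37.8, 37.3, 14.2 and 19.7 CPM in cholate rats 3, 4, 7, 8 and 11, against 30.0, 29.1, 16.6, 31.8 and 11.6 CPM in control rats 1, 2, 5, 6 and 9. On both diets the shallow libraries were low, and control rat 5 was low with them. Its change was 0.28 (SE 0.35, interval -0.48 to 1.04, adjusted p = 0.649). Without the shallow libraries it was 0.49 (adjusted p = 0.0951), and without control rat 5 too it was 0.32 (adjusted p = 0.0244), where 3 cholate rats were compared with 3 control rats.

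Mdm2 (Entrez 314856, chromosome 7, 60719060 to 60743618, minus strand) had 43.2, 38.1, 36.0, 34.9 and 38.0 CPM in cholate rats 3, 4, 7, 8 and 11, against 43.3, 36.1, 37.3, 36.5 and 33.8 CPM in control rats 1, 2, 5, 6 and 9. The 2 diets spanned almost the same range, and the coefficient of variation was the smallest of the 10 genes, at 8.31% on cholate and 9.49% on control. The estimated change was 0.02 (SE 0.12, adjusted p = 0.920), with an interval of -0.24 to 0.28, and its sign turned under 5 of 20 other settings. Without the shallow libraries it was 0.05 (adjusted p = 0.753).

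Among the genes that promote death, Bax (Entrez 24887, chromosome 1, 101451801 to 101457207, minus strand) encodes an effector that forms pores in the outer mitochondrial membrane. It had 7.38, 9.08, 8.97, 18.3 and 16.6 CPM in cholate rats 3, 4, 7, 8 and 11, against 9.68, 9.92, 10.9, 8.15 and 14.2 CPM in control rats 1, 2, 5, 6 and 9. The 3 highest values were those of the 3 shallow libraries. The estimated change was 0.19 (SE 0.28, interval -0.43 to 0.80, adjusted p = 0.724), and without these 3 libraries it was -0.16 (adjusted p = 0.488).

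Bbc3 (Entrez 317673, chromosome 1, 78261491 to 78267802, plus strand) encodes Puma, a BH3-only protein that neutralizes pro-survival BCL2 proteins. The table counts it over 120 coding bases, since its annotated coding sequence is partial. It had 2.44, 1.77, 3.16, 4.32 and 4.93 CPM in cholate rats 3, 4, 7, 8 and 11, against 3.33, 2.26, 2.499, 2.52 and 3.10 CPM in control rats 1, 2, 5, 6 and 9. The 2 shallow cholate libraries were again the highest, and the diets overlapped. Its log2 fold change was 0.26 (SE 0.29, interval -0.38 to 0.91, adjusted p = 0.610) with all rats and -0.09 without the shallow libraries (adjusted p = 0.824).

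Pmaip1 (Entrez 492821, chromosome 18, 62159128 to 62179635, plus strand) encodes Noxa, a BH3-only protein that binds Mcl1. It had 15.8, 13.9, 12.2, 3.19 and 5.24 CPM in cholate rats 3, 4, 7, 8 and 11, against 14.3, 21.2, 8.77, 15.1 and 5.17 CPM in control rats 1, 2, 5, 6 and 9. The shallow libraries held the 3 lowest values, and the coefficient of variation was the largest of the 10 genes, at 55.1% on cholate and 47.9% on control. The log2 fold change was -0.35 (SE 0.47, interval -1.38 to 0.68, adjusted p = 0.682), and -0.06 without the shallow libraries (adjusted p = 0.886).

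Fas (Entrez 246097, chromosome 1, 252589785 to 252624790, plus strand) encodes the death receptor that is bound by Fas ligand. It had 4.47, 3.06, 5.57, 8.33 and 10.10 CPM in cholate rats 3, 4, 7, 8 and 11, against 13.3, 10.96, 10.15, 10.99 and 8.82 CPM in control rats 1, 2, 5, 6 and 9. The 4 deeper control libraries lay above every cholate library, and only control rat 9, a shallow library, lay below cholate rat 11, another shallow one. The log2 fold change was -0.79 (SE 0.30, interval -1.46 to -0.13), and the adjusted p of 0.106 in the edgeR test did not pass. Without the 3 shallow libraries it was -1.36 (adjusted p = 0.00327), a call at an adjusted p under 0.01 with a fold over 2. In that comparison 6.66% of 12620 genes met the same criteria. Without cholate rat 11 alone it was -1.04 (adjusted p = 0.0285). DESeq2 gave -0.79 at an adjusted p of 0.0440 and limma-voom -1.03 at 0.0335. Fas ligand itself, Faslg, was not tested, at a mean of 0.0271 CPM on cholate and 0.269 CPM on control.

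The pro-survival gene Bcl2l1 (Entrez 24888, chromosome 3, 148259594 to 148314191, minus strand) encodes Bcl-xL, which holds Bax inactive. It had 29.5, 31.6, 27.1, 19.1 and 21.3 CPM in cholate rats 3, 4, 7, 8 and 11, against 14.4, 17.2, 20.6, 19.6 and 17.1 CPM in control rats 1, 2, 5, 6 and 9. The 3 deeper cholate libraries lay above every control, and cholate rat 8, a shallow library, lay within the control range. The log2 fold change was 0.53 (SE 0.18, interval 0.15 to 0.92), with an adjusted p of 0.0682 in the edgeR test. Without the 3 shallow libraries it was 0.74 (adjusted p = 0.00772), where 29.4% of all genes had an adjusted p under 0.05, and without cholate rat 8 alone it was 0.64 (adjusted p = 0.0372). DESeq2 gave 0.55 at an adjusted p of 0.0275.

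Mcl1 (Entrez 60430, chromosome 2, 197786212 to 197788992, plus strand) encodes a short-lived pro-survival protein and is counted over 267 bases of a partial coding sequence. It had 79.7, 68.0, 61.7, 43.5 and 47.7 CPM in cholate rats 3, 4, 7, 8 and 11, against 57.5, 64.2, 55.3, 57.2 and 41.9 CPM in control rats 1, 2, 5, 6 and 9. On both diets the lowest values were those of the shallow libraries. Its change was 0.12 (SE 0.18, interval -0.28 to 0.53, adjusted p = 0.722), and 0.28 without the shallow libraries (adjusted p = 0.0984).

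**Figure D2:**
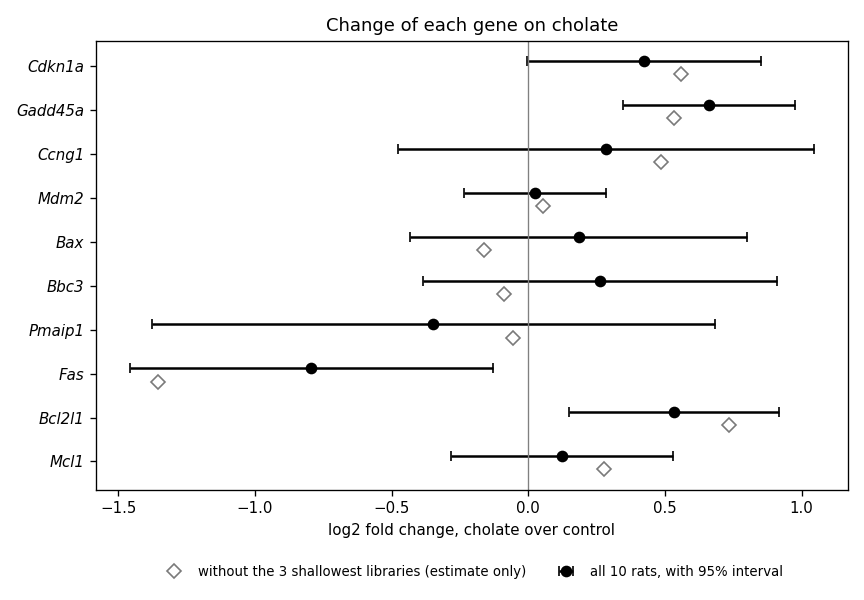
Log2 fold change of cholate over control for each of the 10 genes. Filled points with bars are estimates with 95% intervals over all 10 rats and open diamonds are estimates without the 3 shallowest libraries. The interval of Gadd45a runs from 0.35 to 0.98, and the estimate of Fas is -0.79 with all rats and -1.36 without those libraries.

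The levels of the 10 genes can be set side by side only per length, here as CPM per kilobase of coding sequence. On that scale Mcl1 was at 225 ± 55.5 on cholate and 207 ± 30.6 on control, Cdkn1a at 213 ± 60.7 on cholate and 159 ± 28.6 on control, and Gadd45a at 161 ± 23.3 on cholate and 102 ± 13.7 on control (SD, n = 5 each). These 3 genes stood well above the other 7, whose means lay between 6.47 and 32.7 on cholate and between 11.1 and 26.9 on control. Among the lower genes Ccng1, Bbc3, Bcl2l1, Mdm2 and Bax lay at means of 20.8 to 32.7 on cholate and 17.9 to 26.9 on control. Pmaip1, at 9.89 ± 5.45 on cholate and 12.6 ± 6.06 on control, and Fas, at 6.47 ± 2.94 on cholate and 11.1 ± 1.66 on control, were lowest. Below these 3 the order of means was Ccng1, Bbc3, Bcl2l1, Mdm2 and Bax on cholate and Ccng1, Mdm2, Bbc3, Bax and Bcl2l1 on control. Within each diet's own order the ranges of neighbours overlapped between rats, except between Gadd45a and Ccng1 on both diets and between Cdkn1a and Gadd45a on control. Partial coding sequences in Mcl1 and Bbc3 make their levels per length less certain. Pmaip1 was scaled by 1020 annotated coding bases, a length that was not checked, so its low place is less certain too.

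The balance between Bax and its inhibitors was taken as a ratio of levels per coding kilobase. Bax to Bcl2l1 was 0.429, 0.493, 0.568, 1.65 and 1.33 in cholate rats 3, 4, 7, 8 and 11, against 1.15, 0.987, 0.909, 0.715 and 1.42 in control rats 1, 2, 5, 6 and 9. The 3 deeper cholate libraries lay below every control and the 2 shallow ones within or above the control range, so that the diets overlapped. Bax to Mcl1 was 0.0427, 0.0616, 0.0670, 0.194 and 0.160 in cholate rats 3, 4, 7, 8 and 11, against 0.0777, 0.0713, 0.0912, 0.0657 and 0.156 in control rats 1, 2, 5, 6 and 9. All 3 shallow libraries stood above the 7 deeper ones, and among the deeper ones the diets overlapped, with cholate rat 7 above control rat 6.

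In Pmaip1, Ccng1, Mcl1 and Bax the spread within each diet ran with the shallow libraries. Averaged over both diets, the shallow libraries differed from the deeper ones on the log2 scale by -1.56 for Pmaip1, -1.14 for Ccng1, -0.54 for Mcl1, 0.55 for Bbc3 and 0.79 for Bax. The difference was -0.31 for Cdkn1a and -0.29 for Bcl2l1. For Mdm2 it was -0.14. In Fas the average of 0.36 joins opposite signs, since cholate rats 8 and 11 lay 0.50 and 0.78 above their diet mean while control rat 9 lay below its own, at -0.28. Gadd45a, with an average of 0.01, did likewise, at 0.09 and 0.22 in cholate rats 8 and 11 and -0.19 in control rat 9. A difference over 1 in either direction was seen in 2 of the 10 genes, beside 17.2% of all genes tested. Across genes, which are not independent replicates, the difference had a correlation of -0.341 with the logarithm of coding length. The part of depth in each gene's level was not tested.

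**Figure D3:**
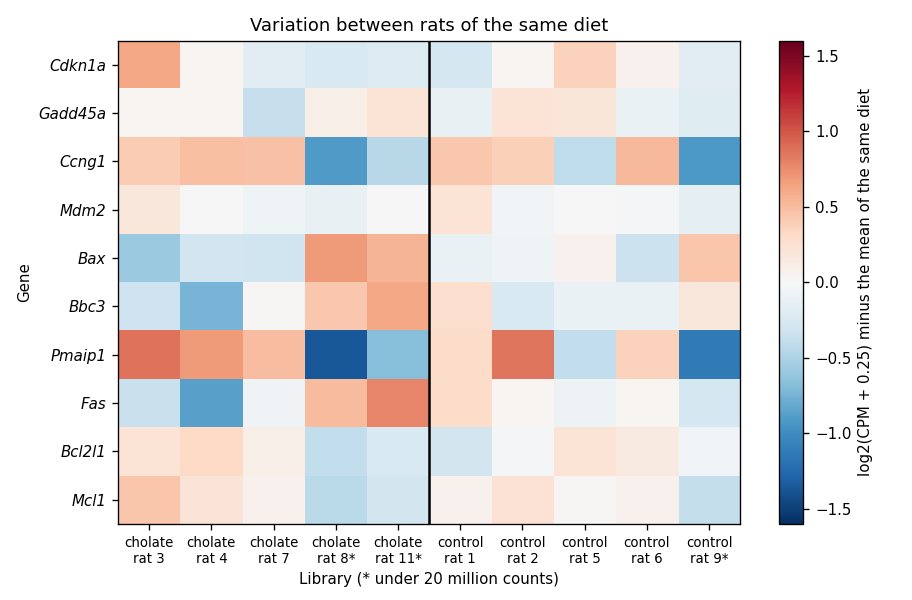
Deviation of each gene in each library from the mean of its diet, as log2(CPM + 0.25), with cholate rats left of the black line and control rats right of it. Asterisks mark shallow libraries. Pmaip1 and Ccng1 are low, and Bax is high, in all 3 marked libraries.

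Whether any of the 10 genes varied together was read from the 7 deeper libraries, as deviations from their diet means. Of 45 pairs, 2 had an unadjusted permutation p under 0.05 and 0 an adjusted one. Permutations moved deviations between diets, though each diet was centred on its own mean, so these p-values are approximate and may be too small. The highest correlation joined Bbc3 and Fas, with a Pearson r of 0.948 (permutation p = 0.00198, adjusted p = 0.0893). Their Spearman rho was 0.964 (permutation p = 0.00278, adjusted p = 0.125). Leaving out the 2 libraries in which Bbc3 lay farthest from its median gave an r of 0.881. The lowest r was -0.774, for Bbc3 and Gadd45a, and it was -0.267 without the same 2 libraries.

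Among 10016 genes compared over the 10 libraries, the profiles most like that of Gadd45a were those of Cyp51 (Pearson r of 0.949), a sterol demethylase, Rab22a (0.945), a small GTPase, and Fasn (0.943), fatty acid synthase. Cyp51 rose by 0.70 (SE 0.13, adjusted p = 0.00764) and Fasn by 0.57 (SE 0.11, adjusted p = 0.00954), while Rab22a, at 0.28, did not pass (adjusted p = 0.124). Those most like Cdkn1a were Gprc5a (0.951), an orphan receptor induced by retinoic acid, Esrp2 (0.951), an epithelial splicing regulator, and Trim15 (0.941), a tripartite motif protein. In Trim15, which rose by 1.89 (SE 0.49, adjusted p = 0.0272), cholate rat 3 stood highest as in Cdkn1a, with 57.3, 17.8, 13.9, 10.5 and 12.6 CPM in cholate rats 3, 4, 7, 8 and 11 and at most 8.91 CPM in any control rat. All libraries in these correlations share the diet difference and the depth difference described above. Diet means were not removed, so genes picked for likeness to a member tend to share its diet difference. The p-values of these genes are therefore no separate evidence.

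The rest of the pathway was read from 6 lists of genes, with 112 genes in the table and 98 tested. At an adjusted p under 0.05, 7 were higher and 12 lower on cholate, 19.4% of those tested beside 13.8% of all genes, of which 6.48% were higher and 7.28% lower. Their median log2 fold change was 0.04. At an adjusted p under 0.01 with a fold over 2, 1 gene was called, Steap3, which is 1.02% of those tested beside 3.21% of all genes. The lists are described one by one, and no test was made of any list as a whole.

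On the list of p53 and its regulators, 1 of 16 tested genes passed the test and it fell, with a list median of 0.08. That gene was Tp53bp1, an adaptor at DNA double-strand breaks, at 32.4 ± 3.38 CPM on cholate and 43.4 ± 1.88 CPM on control (-0.42, SE 0.11, adjusted p = 0.0335). Its adjusted p was 0.0561 without the shallow libraries.

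Of 29 tested p53 targets beyond the 10 genes, 2 rose and 6 fell, with a median of -0.11. Steap3, a metalloreductase, fell by 1.15 on the log2 scale (SE 0.18, adjusted p = 0.00291), with 26.7, 18.5, 25.6, 30.2 and 35.3 CPM in cholate rats 3, 4, 7, 8 and 11, against 58.6, 66.4, 55.5, 70.0 and 51.7 CPM in control rats 1, 2, 5, 6 and 9. Every cholate rat lay below every control rat. Xpc, which recognizes DNA damage in nucleotide excision repair, averaged 16.1 ± 1.24 CPM on cholate and 26.3 ± 3.30 CPM on control (-0.71, SE 0.13, adjusted p = 0.00741). Tp53i11, a p53-inducible gene, averaged 10.3 ± 1.5 CPM on cholate and 19.3 ± 4.15 CPM on control (-0.91, SE 0.19, adjusted p = 0.0110).

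Perp, a membrane protein of desmosomes, rose, at 183 ± 11.8 CPM on cholate and 129.99 ± 12.4 CPM on control (0.49, SE 0.10, adjusted p = 0.0113). Plk2, a polo-like kinase, fell, with 43.1, 10.1, 8.25, 19.0 and 21.7 CPM in cholate rats 3, 4, 7, 8 and 11, against 48.9, 101, 74.5, 77.1 and 88.8 CPM in control rats 1, 2, 5, 6 and 9. The diets did not overlap, though cholate rat 3 came close to control rat 1, and the change was -1.94 (SE 0.42, adjusted p = 0.0127). It missed the threshold without the shallow libraries and control rat 5, at -1.88 (adjusted p = 0.10). Polk, a polymerase that copies past DNA lesions, fell by 0.84 on the log2 scale, at 10.7 ± 2.15 CPM on cholate and 19.2 ± 5.19 CPM on control (SE 0.22, adjusted p = 0.0279).

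Btg2, an antiproliferative gene that is also an early response gene, fell by 0.73 on the log2 scale (SE 0.21, adjusted p = 0.0385), at 135 ± 29.6 CPM on cholate and 224 ± 63.9 CPM on control. Sfn, stratifin, a checkpoint adaptor of epithelia that is named here after its values were seen, rose by 1.09 (SE 0.31, adjusted p = 0.0399), with 592, 314, 214, 218 and 185 CPM in cholate rats 3, 4, 7, 8 and 11, against 112, 138, 187, 125 and 155 CPM in control rats 1, 2, 5, 6 and 9. Cholate rat 3 stood highest in Sfn as in Cdkn1a, and the diets overlapped at cholate rat 11.

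Of 15 tested BCL2 family genes beyond the members, 2 rose and 2 fell, with a median of 0.10. Bak1, a pore-forming effector like Bax, had 108, 106, 123, 134 and 124 CPM in cholate rats 3, 4, 7, 8 and 11, against 75.0, 74.7, 79.3, 81.7 and 90.3 CPM in control rats 1, 2, 5, 6 and 9. The diets did not overlap, and the change was 0.57 (SE 0.11, adjusted p = 0.00768). Bcl2l15 rose as well, at 260.3 ± 81.2 CPM on cholate and 126 ± 35.2 CPM on control (1.05, SE 0.24, adjusted p = 0.0165). Bmf, a BH3-only protein, fell, at 0.849, 2.36, 2.97, 1.00 and 2.13 CPM in cholate rats 3, 4, 7, 8 and 11, against 6.73, 8.39, 5.26, 7.82 and 2.99 CPM in control rats 1, 2, 5, 6 and 9 (-1.73, SE 0.40, adjusted p = 0.0167). Bok, a relative of Bax and Bak1, averaged 22.8 ± 10.8 CPM on cholate and 49.4 ± 5.81 CPM on control (-1.12, SE 0.27, adjusted p = 0.0212). The genes of this list thus moved in both directions among promoters of death. Their summed level was 541 to 766 CPM on cholate and 428 to 505 CPM on control. Of that sum Bcl2l15 alone held a mean of 260.3 CPM on cholate and 126 CPM on control.

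Of 19 tested caspase and apoptosome genes, 2 rose and 1 fell, with a median of -0.07. Aifm1, the mitochondrial apoptosis-inducing factor, averaged 210.2 ± 15.5 CPM on cholate and 152 ± 8.16 CPM on control (0.46, SE 0.09, adjusted p = 0.0102). Birc5, survivin, a mitotic protein that is also among the proliferation markers, averaged 50.5 ± 17.7 CPM on cholate and 25.1 ± 6.49 CPM on control (1.01, SE 0.25, adjusted p = 0.0241). Birc2, an inhibitor of apoptosis, averaged 25.8 ± 4.43 CPM on cholate and 36.6 ± 2.92 CPM on control (-0.51, SE 0.14, adjusted p = 0.0402). Casp6 was listed at 0 in every library, which may come from the deposited counting and does not show that the gene was silent.

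Of 15 tested death receptor genes, 1 rose and 1 fell, with a median of 0.15. Ripk3, the kinase of necroptosis, had 53.5, 49.3, 48.9, 58.2 and 44.4 CPM in cholate rats 3, 4, 7, 8 and 11, against 13.5, 21.0, 29.7, 21.1 and 41.1 CPM in control rats 1, 2, 5, 6 and 9. All cholate rats lay above all controls, with control rat 9 close below them, and the change was 1.01 (SE 0.26, adjusted p = 0.0261). Tnfsf10, the death ligand TRAIL, averaged 8.24 ± 3.14 CPM on cholate and 24.3 ± 12.9 CPM on control (-1.56, SE 0.40, adjusted p = 0.0277). Its receptor Tnfrsf10b was at 4.29 ± 0.853 CPM on cholate and 3.87 ± 1.23 CPM on control (adjusted p = 0.752). Of 8 tested relatives of Cdkn1a, Gadd45a and Ccng1, 1 passed the test and it fell, with a list median of -0.13. That gene, Gadd45g, averaged 16.2 ± 4.42 CPM on cholate and 26.8 ± 5.49 CPM on control (-0.73, SE 0.22, adjusted p = 0.0475), opposite in sign to Gadd45a.

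Of these called genes, Steap3, Xpc, Tp53i11, Perp, Plk2, Bak1, Bmf, Bok and Aifm1 kept an adjusted p under 0.05 whichever rat was left out. Bcl2l15 lost it without control rat 2 (adjusted p = 0.05004). Birc5 lost it without control rat 1, 2 or 6 (adjusted p of 0.0621 to 0.0678), and Ripk3 without cholate rat 4 or control rat 2 or 6 (0.0505 to 0.0714). Tnfsf10 lost it without cholate rat 4 or control rat 1, 2 or 6 (0.0594 to 0.0745). Polk, Sfn and Birc2 passed in 4 of the 10 fits, Tp53bp1 and Btg2 in 2 and Gadd45g in 1, with adjusted p of at most 0.118 in the rest.

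**Figure D4:**
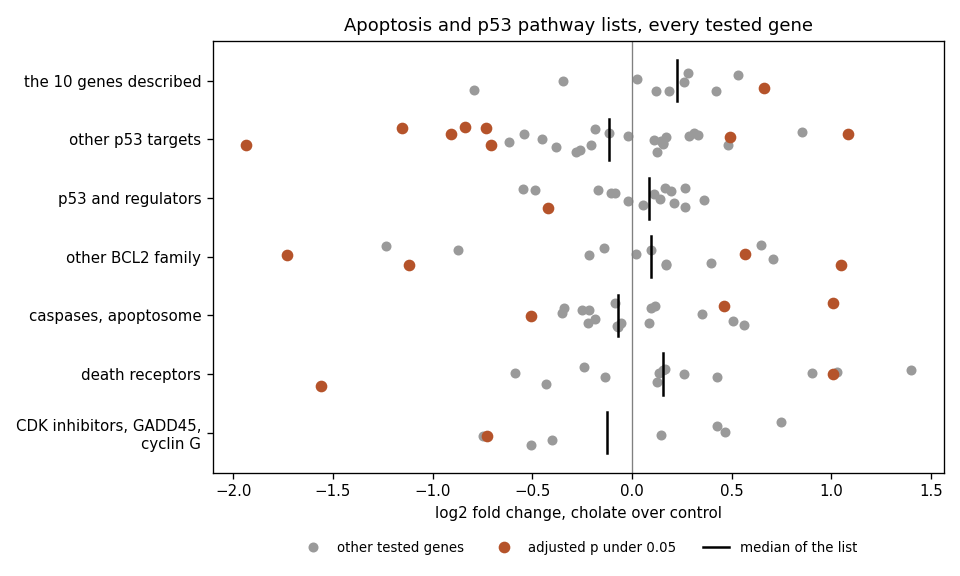
Log2 fold change of cholate over control for every tested gene of the 10 genes and of the 6 pathway lists. Each point is a gene, orange points have an adjusted p under 0.05, and black bars are list medians. The medians lie between -0.13 and 0.22, with orange points on both sides of 0 for p53 targets, BCL2 family, caspases and death receptors.

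Some markers of cell type and state moved with diet beside these genes, and others did not. The summed level of 10 colonocyte markers was 8682 to 14292 CPM on cholate and 4514 to 6285 CPM on control, and 4 of the 10 rose. For 10 epithelial markers the sum was 24272 to 35755 CPM on cholate and 16915 to 23745 CPM on control, and 3 of the 10 rose. For 12 proliferation markers it was 963 to 1455 CPM on cholate and 801 to 948 CPM on control, and 7 of the 12 rose. The diets did not overlap in any of these 3 sums. Krt20 is counted in both the colonocyte and the epithelial sum, and 6.48% of all genes tested rose. Epcam, also an epithelial marker of that list, overlapped between diets and reached lower on cholate, as given above. Of 7 tested goblet, 8 macrophage and granulocyte and 1 B and plasma cell markers, 0 had an adjusted p under 0.05. The sums of those lists overlapped between diets.

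Of 6 smooth muscle markers 2 were tested and both fell, and the summed level was 8.17 to 13.5 CPM on cholate and 42.4 to 61.9 CPM on control. Myh11, the smooth muscle myosin, averaged 5.83 ± 1.22 CPM on cholate and 10.6 ± 1.42 CPM on control (-0.86, SE 0.19, adjusted p = 0.0138). The fibroblast collagen Col1a1 ran between 0 and 0.801 CPM on cholate and between 1.64 and 3.68 CPM on control. Of 7 fibroblast markers 2 were tested and 1 fell. That list summed to 4.28 to 7.89 CPM on cholate and 5.82 to 8.49 CPM on control, which overlap. Col1a2 was listed at 0 in every library, which, as for Casp6, may come from the deposited counting. Of 8 tested T and NK cell markers 1 fell, the granzyme Gzma (-1.92, SE 0.57, adjusted p = 0.0456), with a list median of -0.25 and a summed level of 15.1 to 34.2 CPM on cholate and 16.1 to 29.7 CPM on control. The T cell marker Cd3e, at 0.80 ± 0.565 CPM on cholate and 0.972 ± 0.274 CPM on control, did not pass (adjusted p = 0.778). Of 4 tested endothelial and blood markers 1 fell, the von Willebrand factor gene Vwf (-1.69, SE 0.28, adjusted p = 0.00399), with a list median of -1.13. That list summed to 10.3 to 24.0 CPM on cholate and 20.4 to 48.1 CPM on control, which overlap. Early response genes, which tissue dissociation can induce, summed to 1036 to 1871 CPM on cholate and 1688 to 2999 CPM on control, which overlap. Of 12 tested 4 fell, Btg2 among them. Beside these counts, 7.28% of all genes tested fell. The part of these cell types and states in the levels of the 10 genes was not tested.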

How the data were processed

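RNA of distal colon epithelial cells was sequenced in 10 rats, 5 per diet. The submitters' processing notes name bcl2fastq 1.8.4, BWA 0.7.12-r1039 and the rn6 build for stranded polyA reads. How reads were counted, and whether by strand, the sources used here do not say. Raw counts per gene are deposited in a table, over coding exons, as the effective lengths match merged coding lengths for all 23422 genes, of which 6442 had no reads. Beside them, the deposited normalized signal is CPM by edgeR 3.16.2, per the file headers and notes, and was not tested. Other deposited columns are lengths and coordinates.

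Work used R 4.3.3, edgeR 4.0.16, limma 3.58.1 and DESeq2 1.42.0. Low counts were removed by filterByExpr, and TMM scaling preceded a robust edgeR quasi-likelihood F test with diet as its only term. Benjamini-Hochberg adjustment ran over 12385 genes. The common biological coefficient of variation was 34.3%. Standard errors are approximate, from the log2 change and its F statistic. The method was tested on simulated data that did not hold the shared pattern of the 3 shallow libraries, so that test does not cover it. Depth ran from 14337356 to 45285762 counts per library.

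The 10 genes and the pathway and marker lists were chosen with earlier results of these data known. The text names all 10 genes, the genes of each list called at an adjusted p under 0.01 with a fold over 2, up to 6 per list by adjusted p under 0.05, defining markers, and the 3 genes with a mean of at least 5 CPM most correlated with Cdkn1a and with Gadd45a. A few others (Sfn, Col1a2, Gzma, Vwf, Faslg, Casp6 and Tnfrsf10b) were chosen after their values were seen. Some genes that this rule takes are not reported here. Pair correlations were planned over 10 libraries and are given over 7, since 3 shallow ones form a separate cluster. Alternatives were other scalings, tools and filters and leaving out each rat. Leaving out the 3 shallow libraries, with or without control rat 5, was chosen after seeing the data. Promoter sequences are RefSeq, GRCr8.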

Additional observations from a re-analysis of the deposited data

Results flagged for a closer look

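Among 24 groups of 5 values checked (the level of each gene and the 2 ratios in each diet), 2 had 1 library far from the other 4, and chance alone marks about 1 in 20 such groups. Cdkn1a stood at 157.4 CPM in cholate rat 3, against 86.1 to 105 CPM in the other 4 cholate rats. The ratio of Bax to Mcl1 per coding kilobase was 0.156 in control rat 9, against 0.0657 to 0.0912 in the other 4 control rats.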

How the results depend on the processing

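No paired analysis was possible because the diets have no rat number in common. Gadd45a kept its direction and an adjusted p under 0.05 under all 20 alternatives. Mdm2 changed sign under upper quartile scaling (-0.0095), library size only (-0.038) and a mean of at least 5 CPM (-0.0027), under which Bbc3 was not tested. Bax and Bbc3 turned to -0.16 and -0.090 without the 3 shallow libraries, and to -0.091 and -0.11 without control rat 5 as well. Fas passed an adjusted p of 0.05 with library size only (-0.91), DESeq2 (-0.79), limma-voom (-1.03), and without these libraries (-1.36, and -1.40 without control rat 5). Bcl2l1 passed with DESeq2 (0.55) and without these libraries (0.74 and 0.82), and Cdkn1a (0.68) and Ccng1 (0.32) only without control rat 5 too.

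At an adjusted p under 0.05, called members numbered 3 by DESeq2, beside 21.6% of all genes, and 2 by limma-voom, beside 15.3%. Library size only gave 2, where 833 genes were higher and 1163 lower among 12385 tested. Without the shallow libraries 3 were called, beside 29.4% of all genes, and 5 without control rat 5 too, beside 38.5%. In both of these fits 1 member passed 0.01 with a fold over 2, beside 6.66% and 7.93% of all genes. Over all genes at the stricter threshold, 266 were higher and 522 lower by DESeq2, 256 and 584 without the shallow libraries, 310 and 693 without control rat 5 too. At 0.05, 1361 were higher and 1308 lower by DESeq2, 833 and 1163 by library size only, 1712 higher and 1995 lower without the shallow libraries, 2364 and 2501 without control rat 5 too. In the 6 lists, 11 were higher and 17 lower by DESeq2, 16 higher and 20 lower without the shallow libraries, 18 and 22 without control rat 5 too. The shares of all genes in these fits were 21.6%, 29.4% and 38.5%.

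Leaving out 1 rat gave 59 to 152 genes higher and 109 to 298 lower at the stricter threshold, 414 to 1051 higher and 555 to 1069 lower at 0.05, 1 to 2 members, and 3 to 9 higher and 6 to 15 lower in the 6 lists. Log2 fold changes then ran from -0.023 to 0.082 for Mdm2, -0.021 to 0.32 for Bax, -1.04 to -0.61 for Fas, 0.45 to 0.64 for Bcl2l1, 0.24 to 0.53 for Cdkn1a, 0.067 to 0.43 for Bbc3, -0.56 to -0.096 for Pmaip1, 0.12 to 0.48 for Ccng1, 0.0035 to 0.23 for Mcl1 and 0.60 to 0.75 for Gadd45a. The causes of these shifts were not tested. Of the 10 genes Bbc3 had the fewest counts, 404 on cholate and 370 on control in all, which limits its precision.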
